A study of Mus musculus with 8 samples.

Results

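Microglia are the resident macrophages of the brain parenchyma, and these barcodes were looked for among single-cell libraries of CD45.2-positive cells sorted from mouse brain. A barcode, the droplet tag that stands for a cell, was taken when it held at least 3 unique molecular identifiers (UMIs, counted RNA molecules) of C1qa, C1qb and C1qc together and at least 1 UMI of at least 2 of P2ry12, Tmem119 and Sall1. Of 51120 barcodes that held 500 UMIs and 200 genes or more, with no more than 5% of UMIs from mitochondria, 84 met this gate, a share of 0.164% (exact binomial 95% interval 0.131 to 0.203, for counting error only). Among the 3015 barcodes with at least 3 UMIs of the C1q genes the share was 2.79%.

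The 8 libraries were 1 per condition, from WT C57BL/6J mice and from AppNL-G-F mice, an amyloid model whose own App gene encodes human-type Aβ and bears the familial Alzheimer mutations known as Swedish (NL), Iberian (F) and Arctic (G). In each genotype there was a control library (water), an acute colitis library (2% DSS, dextran sulfate sodium, in drinking water), a chronic colitis library (3 cycles of 2% DSS and water) and a food allergy library (ovalbumin sensitization with alum, then oral ovalbumin). All were labelled as brain immune cells of mice aged 16 weeks (the study's methods give a somewhat younger age for the mice put on treatment), perfused before the brain was taken, and isolated over Percoll. A group is 1 library. A legend of the study gives an n above 1 for WT control and the AppNL-G-F conditions, without saying how these map to hashtags. The p-values over libraries draw their spread from libraries of different treatments. In the fits of genotype this is how the genotype difference varied across treatments. In the fit of 2 cell classes it is how the class difference varied across libraries. Hashtag antibodies, DNA-tagged antibodies added to each sample before sorting, mark up to 4 groups of cells per library (30 in all, with 3 in WT food allergy and in AppNL-G-F acute colitis). Whether a hashtag stands for a mouse is not given in the sources used here.

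Microglia depend on the cytokine receptor Csf1r and use the fractalkine receptor Cx3cr1, the purine receptor P2ry12 and the transcription factor Sall1 as parts of a resting, or homeostatic, programme. Border macrophages live in the meninges, around vessels and in the choroid plexus, share the C1q genes with microglia, and are marked by the mannose receptor Mrc1, the chemokine Pf4 and Ms4a7. Near Aβ plaques, microglia are known to lower homeostatic genes and to raise a set that includes Trem2, Apoe, Cst7, Lpl, Cd9 and lysosomal cathepsins.

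The promoters of 4 genes that the results turn on are shown as a reference for that contrast, from 250 bases before to 50 bases after the gene start (RefSeq, GRCm38.p6, 5′ to 3′ on the gene's strand). P2ry12 is a gate gene, Cst7 and Trem2 belong to the plaque-associated list and Mrc1 marks border macrophages. Capitals mark GAGGAA or its reverse complement TTCCTC, the core of the site bound by the myeloid factor PU.1.
P2ry12 (chr3:59262936-59263235, minus strand): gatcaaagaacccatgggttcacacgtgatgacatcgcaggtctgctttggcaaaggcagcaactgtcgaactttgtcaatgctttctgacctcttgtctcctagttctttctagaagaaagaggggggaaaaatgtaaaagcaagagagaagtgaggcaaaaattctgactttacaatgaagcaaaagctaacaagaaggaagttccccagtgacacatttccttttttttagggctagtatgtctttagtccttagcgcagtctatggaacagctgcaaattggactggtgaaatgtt
Cst7 (chr2:150570165-150570464, plus strand): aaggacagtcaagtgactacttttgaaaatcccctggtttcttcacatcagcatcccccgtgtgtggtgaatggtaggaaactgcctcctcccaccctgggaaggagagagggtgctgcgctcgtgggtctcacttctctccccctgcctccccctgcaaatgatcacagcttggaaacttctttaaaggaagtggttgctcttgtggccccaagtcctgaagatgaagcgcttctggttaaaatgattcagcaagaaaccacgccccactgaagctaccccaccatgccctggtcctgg
Trem2 (chr17:48346151-48346450, plus strand): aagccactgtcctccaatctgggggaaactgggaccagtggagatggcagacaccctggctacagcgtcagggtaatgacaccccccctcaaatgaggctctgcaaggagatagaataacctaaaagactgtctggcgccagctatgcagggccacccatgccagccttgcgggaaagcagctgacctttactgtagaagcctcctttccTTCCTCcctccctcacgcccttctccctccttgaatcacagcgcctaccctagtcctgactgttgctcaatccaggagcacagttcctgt
Mrc1 (chr2:14229164-14229463, plus strand): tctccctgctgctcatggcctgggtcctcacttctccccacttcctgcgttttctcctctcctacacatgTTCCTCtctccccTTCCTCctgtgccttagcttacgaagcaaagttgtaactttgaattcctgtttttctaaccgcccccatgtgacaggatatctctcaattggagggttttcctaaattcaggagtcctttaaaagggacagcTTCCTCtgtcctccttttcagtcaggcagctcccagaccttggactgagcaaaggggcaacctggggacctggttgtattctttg
The letters occurred 0 times in the P2ry12 and Cst7 windows, 1 time in that of Trem2 and 3 times in that of Mrc1. They were in 28.3% of all 27025 promoters of this length, in 4 of 15 matched homeostatic and gate genes, in 7 of 20 plaque-associated genes and in 6 of 10 border macrophage genes. These matches describe the windows and say nothing of binding.

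The gated barcodes were few in every library. WT control held 9 of 7167 barcodes (0.126%), WT acute colitis 12 of 4891 (0.245%), WT chronic colitis 3 of 5642 (0.0532%) and WT food allergy 14 of 6136 (0.228%). AppNL-G-F control held 14 of 7089 (0.197%), acute colitis 9 of 7201 (0.125%), chronic colitis 7 of 6126 (0.114%) and food allergy 16 of 6868 (0.233%). The genotypes overlapped, and the exact binomial intervals of the lowest library (0.0110 to 0.155%) and the highest (0.127 to 0.428%) met.

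The mean share was 0.163% ± 0.0904 (SD, n = 4 libraries) in WT and 0.167% ± 0.0572 (n = 4) in AppNL-G-F, a difference of 0.00436 percentage points (exact two-sided permutation test over libraries, p = 0.943, where 0.0286 is the smallest p that 4 against 4 can give). With hashtag groups of at least 200 barcodes as the units, 7 contrasts of treatment with control or of the 2 controls were made. The exact permutation p-values adjusted over the 7 were 0.8 to 0.857, with unadjusted p-values that could not go below 0.0286 (0.0667 for WT acute colitis), and whether each hashtag group is 1 mouse is not given in the sources used here.

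**Figure D1:**
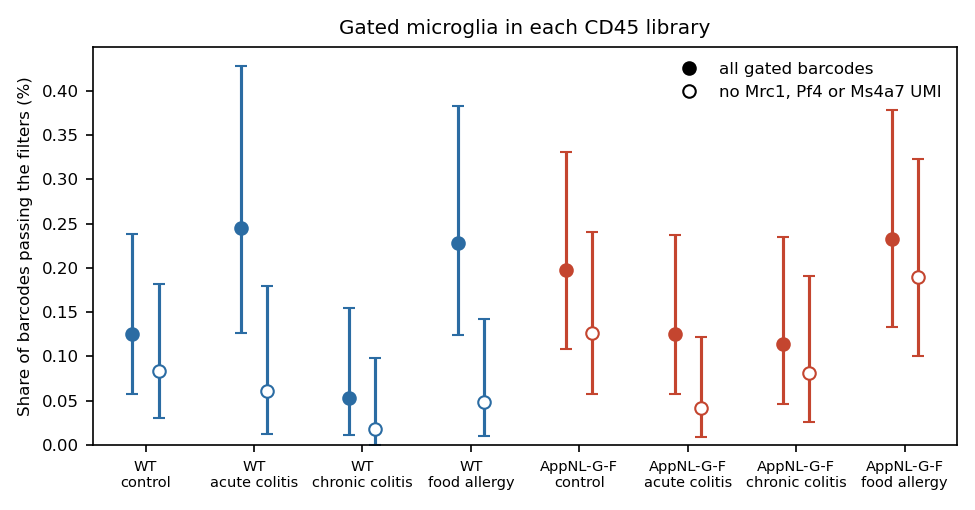
Share of barcodes passing the filters that met the gate (y axis, percent) in each of the 8 libraries (x axis), with exact binomial 95% intervals. Filled points are all 84 gated barcodes and open points the 43 without a UMI of Mrc1, Pf4 or Ms4a7. The filled points run from 0.0532% to 0.245% and overlap between genotypes.

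The rule used the 6 gate genes, so their values are given as a description. P2ry12 had a UMI in 83 of 84 barcodes (median 1, highest 23), Tmem119 in 81 (median 1.5, highest 19) and Sall1 in 22 (median 0, highest 3). All 3 genes were detected in 18 barcodes and 2 of them in 66. The sum of C1qa, C1qb and C1qc had a median of 91 UMIs and a highest value of 358. Just inside the threshold of 3 lay 2 barcodes with sums of 3 and 4, and the next had 18. Outside it, 466 barcodes had a C1q sum of at least 3 but only 1 of the 3 microglia genes, none had a C1q sum of 1 or 2 with 2 of those genes, and 21 had 2 of those genes with a C1q sum of 0. In 28 of the 84 barcodes the gate rested on exactly 1 UMI of P2ry12 and 1 of Tmem119.

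The label was checked against 5 microglia markers that the rule did not use (Cx3cr1, Gpr34, Olfml3, Siglech and Fcrls), taken as a sum, and against the border macrophage genes. Many barcodes went against the label in part. Of the 84, 43 (51.2%) had no UMI of Mrc1, Pf4 and Ms4a7, 11 had 1 of these genes and 30 had 2 or 3. The 5 markers stood at 41.5 UMIs per 10000 in the 43 barcodes without a border gene, at 38.3 in the 11 with 1 and at 11.4 in the 30 with 2 or 3. In the same order they stood at 20.1, 18.9 and 14.4 in WT, with medians per barcode of 26.0, 12.8 and 11.7. In AppNL-G-F they stood at 62.7, 99.0 (3 barcodes) and 8.63, with medians of 58.5, 99.1 and 9.72. Border macrophages, taken as 1317 barcodes with a C1q sum of at least 3, at least 2 of the 3 border genes and none of the 3 microglia genes, had 5.49, B cell barcodes 0.236, and empty droplets 0.470 to 1.84 by library. The barcodes with 2 or 3 border genes lay between those without and the border macrophages, so all 84 are called gated barcodes here rather than microglia. The division by border genes was chosen after the values were seen.

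Barcodes with and without border genes also differed in depth and in hashtags. The median was 3550 UMIs per barcode without a border gene and 7318.5 with 2 or 3. More than 1 hashtag was present in 6.98% of the first, in 36.7% of the second, in 20.2% of the 84 and in 9.27% of all barcodes. Of 13928 B cell barcodes, which should hold neither C1q nor microglia genes, 7 met the gate. The part of doublets and free RNA in the border gene signal was not tested.

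Barcodes without a border gene were 13 of 38 in WT and 30 of 46 in AppNL-G-F. By library they numbered 6, 3, 1 and 3 in WT and 9, 3, 5 and 13 in AppNL-G-F, where control comes first, then acute and chronic colitis, and food allergy last, an order kept for all values by library that follow. Their mean share was 0.0529% ± 0.0275 (SD, n = 4) in WT and 0.110% ± 0.0634 (n = 4) in AppNL-G-F, which overlapped (exact permutation test, p = 0.2). Over the barcodes of low hashtag groups, as defined by immediate-early genes further on, this share was 0.151% in WT and 0.215% in AppNL-G-F, and in high groups 0.0188% and 0.0168%.

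**Figure D2:**
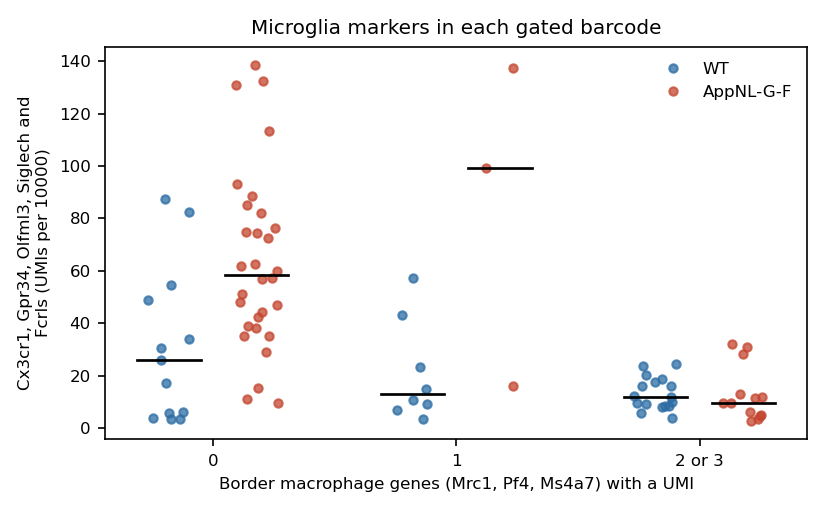
Cx3cr1, Gpr34, Olfml3, Siglech and Fcrls together (y axis, UMIs per 10000 of the barcode) in each of the 84 gated barcodes by the number of border macrophage genes with a UMI (x axis), in WT (blue) and AppNL-G-F (red), with black lines at the median of each genotype. Barcodes with 0 border genes reach 139 and those with 2 or 3 stay at or under 32.2.

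Other cell types contributed to a few barcodes. Markers of neurons had 0 UMIs in all 84, astrocyte and fibroblast markers at most 1 UMI, and oligodendrocyte and endothelial markers at most 2. Of the leukocyte lists, neutrophil markers were at 0 in 36 barcodes and passed 1% of UMIs in 5, B cell, monocyte and globin genes each in 1. In all, 7 barcodes had over 1% of their UMIs from neutrophil, B cell, T cell, NK cell or erythroid markers, 4 of them with several hashtags, and the highest neutrophil share was 34.3%. The tests over all gated barcodes were also run without these 7, an alternative added after the values were seen. Barcode sequences shared by 2 or more libraries numbered 1549, and 3 of the 84 were among them.

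The hashtag groups differed in immediate-early genes such as Fos and Jun, which cells switch on within minutes of a stimulus, and this bears on every comparison that follows. In T cell barcodes the 10 immediate-early genes together ran from 6.12 to 16.8 UMIs per 10000 in 14 hashtag groups and from 34.6 to 65.6 in the other 16. The low groups held 36 of the gated barcodes but 10 of the 1317 border macrophages, and the high groups 29 and 841. Of the 43 barcodes without a border gene, 33 were in low groups and 5 in high groups. WT supplied 3966 barcodes of the low groups and AppNL-G-F 12576. Of the gated barcodes WT had 6 in low and 19 in high groups, and AppNL-G-F had 30 and 10. Class, hashtag group and genotype therefore partly coincide, and values within hashtag groups are given where counts or a fit could be had.

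Gated barcodes were compared with border macrophages on counts summed per library (edgeR quasi-likelihood test with library as a term, Benjamini-Hochberg adjustment). These are other genes of barcodes chosen by their gate genes, so the test describes what the gate took along and is not independent of it. Homeostatic genes were higher: 12 of 16 rose and none fell, against 1.81% of all 6347 genes higher and 2.21% lower (4.02% in all), with a median log2 fold of 2.40 against -0.10 over all genes. Border macrophage genes other than the gate genes fell in 13 of 14. Of the plaque-associated list, 6 of 21 tested genes rose (Cd9, Ctsd, Cst7, Trem2, Ctsl and Ctsz) and none fell. Leaving out 1 library gave 144 to 278 calls in place of 255, with 144 without AppNL-G-F chronic colitis and 164 without AppNL-G-F food allergy. Without the 7 mixed barcodes homeostatic genes rose in 14 of 16, where more genes were called over all (593 calls in place of 255).

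Sparc, a matrix-associated glycoprotein, had 2.32 to 18.02 UMIs per 10000 in the gated barcodes of the 8 libraries and 0 to 0.197 in their border macrophages. The levels did not overlap, and the log2 fold was 6.02 ± 0.49 (SE, n = 8 libraries, each with both classes). Olfml3, a secreted olfactomedin-like protein, had 1.14 to 27.7 against 0.0388 to 0.5263 (log2 fold 4.26 ± 0.40).

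The lectin Siglech rose by a log2 fold of 3.57, the fructose transporter Slc2a5 by 5.89, the lysophosphatidylserine receptor Gpr34 by 2.73 and Cx3cr1 by 2.09. Slc2a5 rests on 1 UMI in all border macrophages and 19 in the gated barcodes, a ratio of 227 with a counting interval of 36.0 to 9414. Fcrls, Csf1r, Mef2c and Adgrg1 did not pass, with log2 folds of 0.93, 0.65, 0.34 and 2.44.

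Of the 10 named genes with the largest rises, Serpine2, a serine protease inhibitor, had 3.85 UMIs per 10000 over all gated barcodes against 0.0313 in border macrophages (log2 fold 6.07 ± 0.53), and Syngr1, a synaptogyrin, 3.07 against 0.0313 (5.84 ± 0.34). Baiap2l2 and the junction protein Jam2 had no UMI in border macrophages and were at least 115-fold and 79.5-fold higher in the gated barcodes, counted against 3 UMIs over all border macrophages. The others were Sparc, Slc2a5, Csmd3 (5.88), Mlxipl (4.94), Liph (4.77) and Capn3 (4.56). The rises of Baiap2l2, Csmd3, Mlxipl and Liph did not pass in DESeq2, nor did the fall of Calca given next.

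Border macrophage genes ran the other way. Lyve1, a hyaluronan receptor, had a UMI in 2 of 84 gated barcodes (log2 fold -4.61), the haemoglobin scavenger receptor Cd163 in 4 (-3.73), and the chemokine Ccl8 fell by 3.37 on the log2 scale, while Folr2 did not pass (-1.39). The largest falls were antibody variable genes (Igkv9-124, Igkv8-27, Igkv1-110, Igkv14-126, Ighv1-22, Igkv6-25 and Igkv10-96), which single barcodes can carry and whose sign turned for 6 of the 7 in DESeq2, followed by Calca (-7.47), Areg (-6.74) and Chp2 (-6.63). Of the remaining lists, 3 of 10 immediate-early genes, 3 of 16 cytokine and chemokine genes, 1 of 7 MHC class II genes and 1 of 12 interferon genes fell, and none of 8 complement and Fc receptor genes or 8 cell cycle genes passed. With the 43 barcodes without a border gene in place of all 84, 154 genes rose and 548 fell of 6487 (2.37% and 8.45%, 10.8% in all), and all 7 MHC class II and all 10 immediate-early genes fell.

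**Figure D3:**
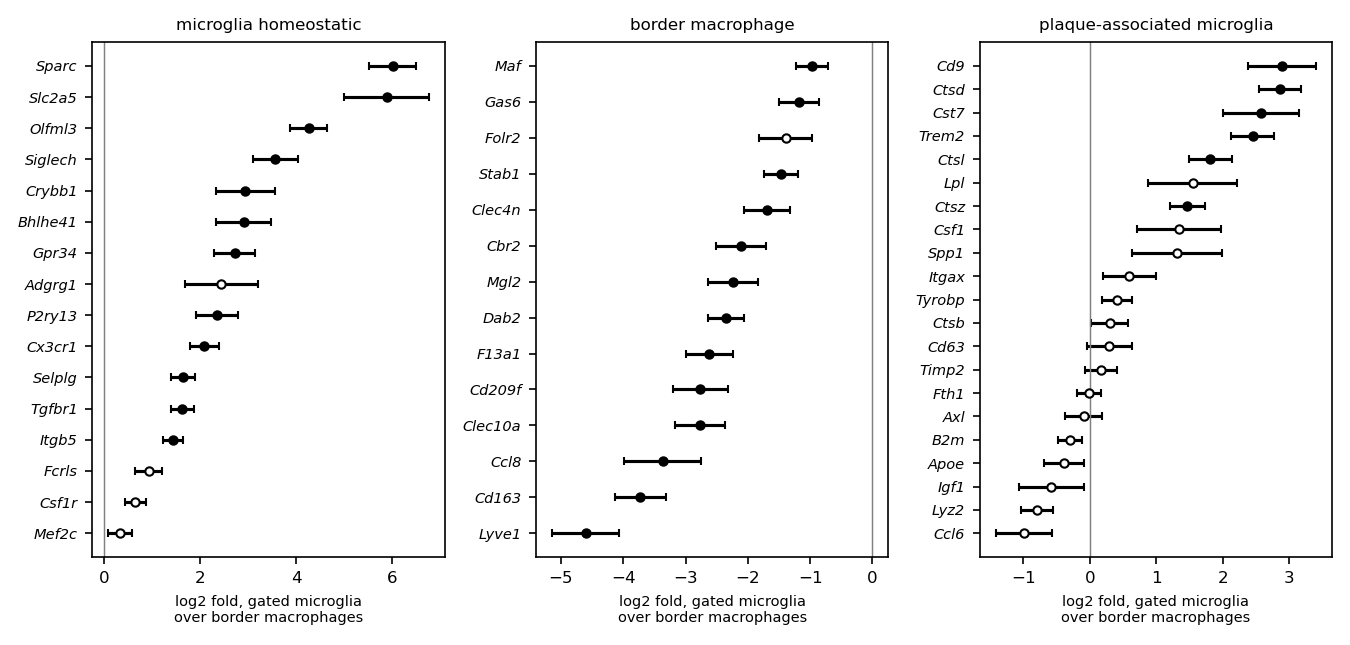
Log2 fold (x axis, with SE bars) of gated barcodes over border macrophages for the genes of 3 lists, from counts summed per library. Filled points passed an adjusted p of 0.05. Sparc stands at 6.02, Lyve1 at -4.61 and Trem2 at 2.45.

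Within the high hashtag groups alone, where 4 libraries held at least 3 gated barcodes, 16 genes rose and 17 fell of 3680 (0.435% and 0.462%, 0.897% in all). Homeostatic genes rose in 3 of 12 (Olfml3, Sparc and Cx3cr1) and border macrophage genes fell in 8 of 14. Sparc rose by a log2 fold of 4.23 ± 0.54 there and Olfml3 by 2.70 ± 0.49. Of the homeostatic genes that rose over all barcodes, Siglech had 0.515 UMIs per 10000 in gated barcodes and 0.345 in border macrophages of the high groups, with overlapping counting intervals and a log2 fold of 0.30, and Gpr34 had 1.45 and 0.611 (1.04). Neither passed there. Trem2 (1.56), Cd9 (1.88), Ctsd (2.03) and the complement gene C3 (2.68) rose as well, which made 3 of 19 plaque-associated genes higher and 1 lower. Cst7 had 4 UMIs in the gated barcodes of high groups, 0.187 per 10000 against 0.107 in border macrophages and 24.1 in the gated barcodes of low groups, and neither it nor Ctsl (-0.03) or Ctsz (0.65) passed. In this set no MHC class II or immediate-early gene passed, with medians of -0.28 and 0.17. In the low hashtag groups Olfml3 had 17.6 UMIs per 10000 in 36 gated barcodes and 0.898 in 10 border macrophages, which are too few to test.

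Levels of Fos and of the MHC class II gene H2-Aa differed between the hashtag groups within both classes. Fos had 0.0606 UMIs per 10000 in the gated barcodes of low groups and 34.9 in those of high groups, and 0.898 and 26.8 in border macrophages. H2-Aa had 1.51 and 88.3 in gated barcodes and 13.9 and 91.9 in border macrophages. Border genes were unevenly spread, absent from 33 of 36 gated barcodes in low groups and from 5 of 29 in high groups. Without a border gene H2-Aa had 1.72 in low and 14.8 in high groups, against 116 in high-group barcodes with a border gene. Fos had 0.0688, 30.1 and 36.7 in the same order. The part of border genes in these differences was not tested.

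The genotype comparison over all 84 gated barcodes (edgeR, additive model of genotype and treatment, 3 residual degrees of freedom) called 0 of 1497 genes (0%), with 105 at an unadjusted p under 0.05, and DESeq2 called 3. On simulated data of this design 61% of genes changed by a log2 fold of 2 were recovered. These were drawn from genes above the median level, with the spread set by the trend over genes, so recovery of lower genes is not known. The 5 genes of lowest p were Tmed3 (log2 fold 2.16), S100a10 (-2.24), Cd63 (2.23), Cd9 (2.51) and Ier5 (-1.54), with adjusted p of 0.569 to 0.578. Leaving out 1 library gave 0 to 68 calls, with 68 without WT acute colitis, 53 without AppNL-G-F acute colitis and 0 without any of the others.

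Without the 7 mixed barcodes 21 genes rose and 5 fell of 899 (2.34% and 0.556%, 2.89% in all). Of the plaque-associated list 10 of 18 rose and none fell, among them Cst7 (4.64 ± 0.85), Lpl (4.95 ± 0.81), Cd9 (3.07 ± 0.38), Trem2 (2.33 ± 0.35) and Ctsd (2.42 ± 0.42). Ank, a pyrophosphate transporter, rose by 4.13 ± 0.63. Among the falls were S100a10 (-2.14), Atf3 (-1.93) and the B cell gene Cd79a (-4.76). Leaving out 1 library gave 17 to 92 calls, with 17 without AppNL-G-F food allergy, 65 without AppNL-G-F acute colitis, 91 without AppNL-G-F control and 92 without WT control. Cst7 passed in 7 of the 8 such fits, and Lpl, Ank, Cd9, Trem2 and Ctsd in 8. Too few libraries held 3 gated barcodes in either hashtag set for this comparison to be made within 1 of them. With both genotypes together, all gated barcodes had 24.1 Cst7 UMIs per 10000 in low groups and 0.187 in high groups. Trem2 had 36.2 and 6.93 there, and Ctsd 135 and 19.7. The part of the hashtag groups in these genotype calls was not tested.

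Over all 84 barcodes none of the 18 plaque-associated genes tested passed, and their median log2 fold was 1.56 against 0.03 over all genes. Cst7, the cystatin F gene, had 0.128 to 1.53 UMIs per 10000 in the 4 WT libraries and 2.40 to 38.4 in the 4 AppNL-G-F libraries. Ctsd, the cathepsin D gene, had 8.05 to 27.1 in WT and 30.4 to 169 in AppNL-G-F. Both sets of libraries were apart, which the test across genes did not call.

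Among the barcodes without a border gene more genes were called. Such barcodes numbered 13 in WT and 30 in AppNL-G-F. The fit used 7 libraries, since WT chronic colitis held 1 of the 13 and was left out. It had 2 residual degrees of freedom, so the spread was taken mainly from all genes together. Of 694 genes tested 33 rose and 33 fell in AppNL-G-F (9.51%, 4.76% in each direction). Of the plaque-associated list 9 of 19 tested rose and none fell, with a median log2 fold of 2.67 against -0.05 over all genes. The 5 markers used to check the label differed between the genotypes too. Without a border gene they stood at 20.1 UMIs per 10000 in WT and at 62.7 in AppNL-G-F.

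Cst7 had 0.817, 0, 6.75 and 0 UMIs per 10000 in WT, with libraries in the order used above, and 11.99, 29.9, 4.56 and 36.4 in AppNL-G-F. The WT chronic colitis value comes from 1 barcode and lies above that of AppNL-G-F chronic colitis, so the groups overlap by 1 library. The log2 fold was 6.21 ± 0.89 (edgeR, adjusted p = 3.36e-09) in the fit, which lacks WT chronic colitis, the overlapping library. With that library included, the summed counts of 296 and 7 UMIs give a ratio of 42.0 (counting interval 20.1 to 105).

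Lpl, lipoprotein lipase, had 0, 0.572, 0 and 0 in WT and 4.13, 5.10, 9.12 and 14.1 in AppNL-G-F (5.92 ± 0.99). Ank had 0.272, 0, 0 and 0 in WT and 3.72, 5.10, 10.8 and 9.10 in AppNL-G-F (5.55 ± 0.996). Neither gene's libraries overlapped, and each had 1 UMI in all of WT, so the ratios of summed counts are wide, 115 (20.3 to 4584) for Lpl and 88.3 (15.4 to 3526) for Ank.

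Trem2, the lipid receptor that signals through Tyrobp, had 5.72, 9.73, 10.1 and 2.01 in WT and 34.7, 59.3, 30.2 and 43.8 in AppNL-G-F (3.14 ± 0.76). The tetraspanin Cd9 had 3.27, 12.02, 1.69 and 1.83 in WT and 42.2, 29.9, 38.8 and 41.7 in AppNL-G-F (3.13 ± 0.77). Every AppNL-G-F library lay above every WT library for both.

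The chemokine Ccl6 (4.65), the tetraspanin Cd63 (2.67) and the cathepsins Ctsb (2.71), Ctsz (2.37) and Ctsl (2.30) also rose, all from the plaque-associated list. Over gated barcodes without the 7 mixed ones, Cd63 and these cathepsins passed. Ccl6 did not (log2 fold 0.90, edgeR, adjusted p = 0.529), and it passed in 0 of 8 fits with 1 library left out. The study lists Ccl6 with genes of mature neutrophils, and the part of neutrophil RNA in its rise was not tested. Ctsd had 34.3, 36.1, 27.0 and 9.15 in WT and 118, 201, 136 and 175 in AppNL-G-F and did not overlap, but its log2 fold of 2.78 did not pass (adjusted p = 0.101). Apoe (1.92, adjusted p = 0.360) and Tyrobp (2.26, 0.0779) did not pass either. Igf1 had 23 UMIs in AppNL-G-F and none in WT, at least 7.61-fold higher against 3 UMIs over WT, with an adjusted p of 0.141.

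Besides Ank, Syngr1 (3.70), Serpine2 (3.58), the lysosomal glycoprotein Cd68 (2.80) and the annexin Anxa3 (2.77) were among the 10 largest rises, and the lysosomal enzyme gene Hexa rose by 2.50. Of 12 homeostatic genes Siglech (2.55), Fcrls (2.32) and Olfml3 (1.93) rose and none fell. In low hashtag groups Siglech passed (2.25) and Fcrls (0.48, adjusted p = 0.614) and Olfml3 (1.16, adjusted p = 0.171) did not, and Siglech and Fcrls each passed in 3 of 7 fits with 1 library left out. Siglech had 1.63, 2.86, 5.07 and 0.183 in WT and 9.51, 1.91, 7.41 and 11.7 in AppNL-G-F, where AppNL-G-F acute colitis lay within the WT range. Of 11 phagocytosis and lysosome genes 3 rose, and of 6 complement and Fc receptor genes 2 rose.

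**Figure D4:**
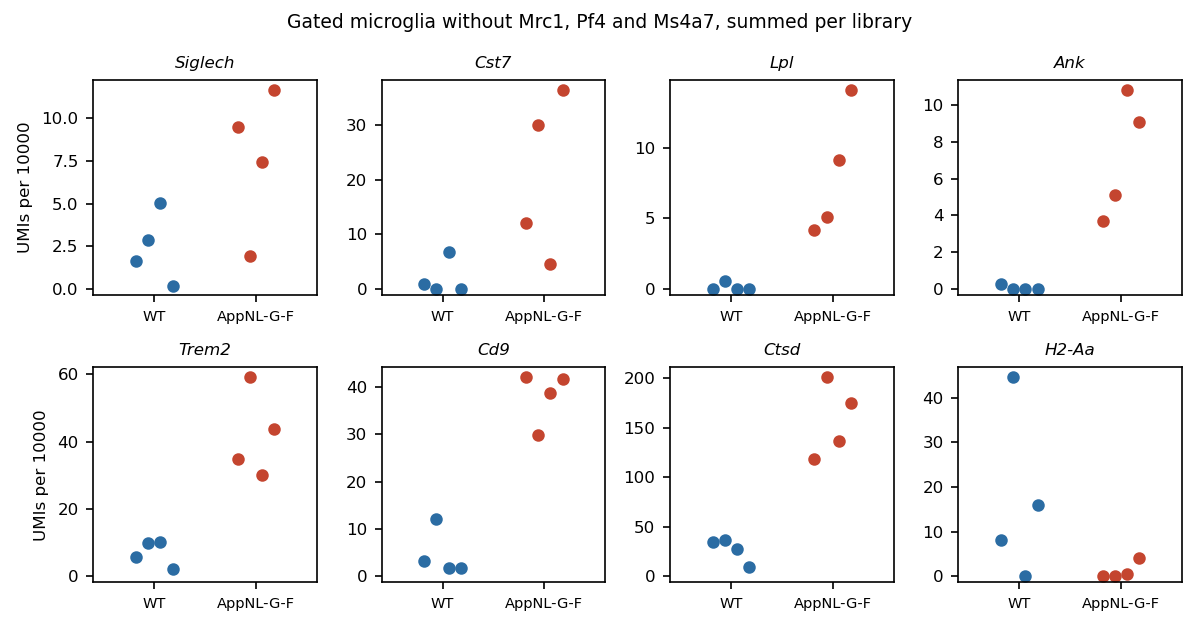
Levels (y axes, UMIs per 10000) of 8 genes in the gated barcodes without a UMI of Mrc1, Pf4 or Ms4a7, summed per library, with 1 point per library and within each genotype the control first from the left, then both colitis libraries (acute, chronic) and last food allergy. Lpl, Ank, Trem2, Cd9 and Ctsd are higher in each AppNL-G-F library than in each WT library, while Siglech, Cst7 and H2-Aa overlap.

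Among the 10 largest falls were those of the antibody genes Igkv4-55 and Igkc, the myeloid genes Plac8, Ly6c2 and Chil3, the chemokine Cxcl2 (-7.38), the immediate-early gene Nr4a1, Stmn1 and the histone gene H2afx, and H2-Eb1. B cell markers summed to 0 to 248 UMIs per 10000 in the WT libraries and 1.91 to 5.70 in AppNL-G-F, and neutrophil markers to 0.272 to 1514 and 4.56 to 300.4. MHC class II genes fell in 3 of 6, with H2-Aa at 8.17, 44.6, 0 and 15.9 in WT and 0, 0, 0.570 and 4.12 in AppNL-G-F (-3.98 ± 0.77), and immediate-early genes fell in 3 of 9.

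Without barcodes that had at least 1% of UMIs from other leukocytes, 10 of 518 genes were called, 4 higher (0.772%) and 6 lower (1.16%, 1.93% in all). WT food allergy had 3 barcodes without a border gene, 1 of them rich in neutrophil RNA. It therefore fell under the 3 barcodes needed, as WT chronic colitis did, and WT control and WT acute colitis were the only WT libraries of this fit. Of the plaque-associated list 1 of 17 rose, Cst7. Of 12 homeostatic genes 0 passed, with Siglech at a log2 fold of 0.88 (adjusted p = 0.817). Cst7 (4.48, adjusted p = 0.00287), Ank (6.35, 0.0119), Syngr1 (2.97) and H2-Aa (-9.02) passed there, while Lpl (3.84, 0.0508), Trem2 (2.54, 0.153) and Cd9 (2.43, 0.215) did not. With all barcodes without a border gene, and not this smaller set, leaving out 1 library gave 16 to 104 calls. Cst7, Syngr1 and H2-Aa passed in 7 of the 7 such fits, Lpl, Ank and Serpine2 in 6, and Trem2, Cd9 and Cd68 in 3. The count fell to 16 without WT food allergy, to 19 without WT control or AppNL-G-F food allergy and to 30 without AppNL-G-F control, and rose to 99 without AppNL-G-F acute colitis and to 104 without WT acute colitis.

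Within the low hashtag groups 27 AppNL-G-F and 6 WT barcodes had no border gene, the WT ones from control (4), chronic colitis (1) and food allergy (1). Plaque-associated genes rose in 15 of 18 tested there and none fell, against 14.8% of all 466 genes higher and 5.79% lower (20.6% in all). Summed over barcodes, Cst7 had 27.4 UMIs per 10000 in AppNL-G-F and 1.54 in WT, Trem2 44.6 and 6.82, Cd9 44.1 and 3.74, and Siglech 9.01 and 1.32. The direction for these genes was that of the whole set. The log2 fold of Cst7 was 2.66 ± 0.75 in this fit, against 6.21 ± 0.89 in the whole set. Those of Trem2 and Cd9 in the low groups were 2.58 ± 0.55 and 3.88 ± 0.61. Genes of other leukocytes passed in this fit too. Neutrophil genes were among the rises in AppNL-G-F, with S100a9 at 9.23, S100a8 at 6.29 and Ngp at 6.42. Antibody and T cell genes were among the falls, with Igkc at -5.64, Igkv4-55 at -6.02 and Cd3e at -3.30. The part of other leukocytes' RNA in the low-group calls was not tested.

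Apoe and MHC class II did not keep their picture in the low groups. Apoe had 142 UMIs per 10000 in AppNL-G-F and 1 UMI in all 6 WT barcodes (0.220), a ratio of 644 with a counting interval of 115 to 25436, and passed the test. H2-Aa had 25 UMIs in AppNL-G-F and none in WT, at least 3.79-fold higher against 3 UMIs over WT, the opposite direction to the whole set. The invariant chain gene Cd74, which had a log2 fold of -2.23 in all barcodes without a border gene (adjusted p = 0.138), rose by 3.13 on the log2 scale in the low groups. A single barcode stood for WT chronic colitis and for WT food allergy here, so the lone barcodes were assumed to vary like the other libraries.

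**Figure D5:**
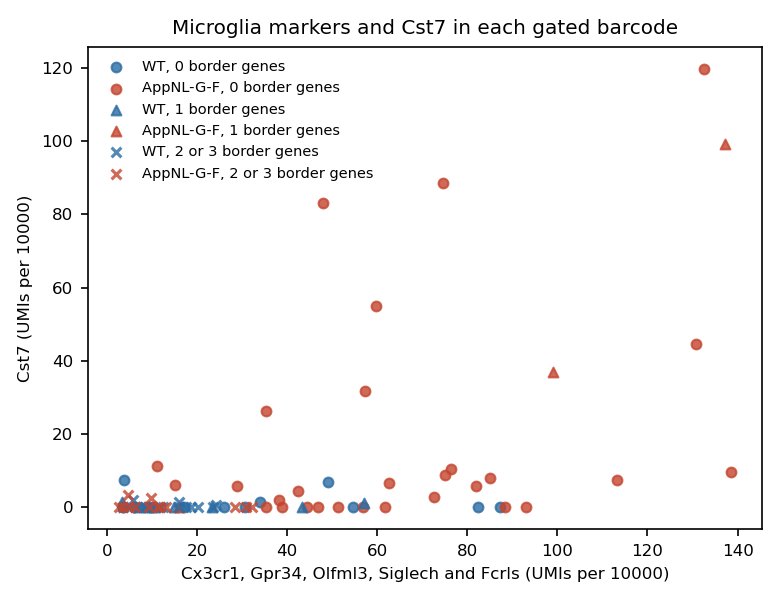
Cst7 (y axis) against the sum of Cx3cr1, Gpr34, Olfml3, Siglech and Fcrls (x axis), both in UMIs per 10000, in each of the 84 gated barcodes, coloured by genotype and with symbols for the number of border macrophage genes with a UMI. The 9 highest Cst7 values, from 26.4, are all in AppNL-G-F barcodes with 0 or 1 border genes and a marker sum of at least 35.2.

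The same genotype comparison in border macrophages called 1 of 8254 genes (0.0121%), with 279 at an unadjusted p under 0.05. Cst7 had 0.134 to 0.673 UMIs per 10000 in their WT libraries and 0.284 to 0.510 in AppNL-G-F, and Trem2 1.12 to 2.00 and 1.29 to 2.56. In high hashtag groups 2 genes were higher and 2 lower of 4883 (0.041% in each direction, 0.0819% in all). The difference between the 2 genotype effects was tested as an interaction on library and class. Over all gated barcodes 4 genes were higher and 1 lower of 6347 (0.063% and 0.0158%, 0.0788% in all), among them Cst7 by 3.94 ± 0.66 and Ank by 3.63 ± 0.70 on the log2 scale. With the barcodes without a border gene 25 were higher and 65 lower of 6487 (0.385% and 1%, 1.39% in all), including 12 of 21 plaque-associated genes higher and 4 of 7 MHC class II genes lower.

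Without the 7 mixed barcodes 45 of 6433 genes differed, with 11 of 20 plaque-associated genes higher. Within the high hashtag groups, where 2 libraries of each genotype could be used, 1 gene was higher and 15 lower of 3680 (0.0272% and 0.408%, 0.435% in all). None of 19 plaque-associated genes passed there, with a median difference of -0.02, and the differences were 4.17 ± 3.24 for Cst7, 0.78 ± 2.08 for Ank and 0.39 ± 0.68 for Trem2.

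The treatments gave no call over all gated barcodes (edgeR, 0 of 1497 genes, 0%, in each). Acute colitis had 38 genes at an unadjusted p under 0.05 and 2 calls in DESeq2, chronic colitis 20 and 1, and food allergy 21 and 0. Leaving out 1 library gave acute colitis 48 calls without WT acute colitis, 11 without AppNL-G-F acute colitis and 1 without WT control. Food allergy had 8 without either acute colitis library and 1 without AppNL-G-F control, and chronic colitis had none in the 8 fits, with 24 to 95 genes at an unadjusted p under 0.05. Without the 7 mixed barcodes each treatment had 0 calls of 899 genes, with 40, 31 and 28 at an unadjusted p under 0.05. The 5 genes of lowest p were T cell genes in acute colitis (Cd3e, Cd3g, Ly6a, Ms4a4b and Thy1, log2 folds -8.23 to -3.49, adjusted p 0.176 to 0.353). In chronic colitis they were Ndufb1-ps (2.20), Ccl8 (-7.98), Igkc (-9.83), Ms4a6b (-2.35) and Ly6a (-2.88), with adjusted p of 0.999. In food allergy they were Ccl8 (-7.35), Cstb (2.37), Thy1 (-2.27), Cd3e (-1.88) and Ltb (-2.58), with adjusted p of 0.999. Each list had no gene passing, and the median log2 fold of the homeostatic list was -0.50, -0.04 and 0.31 in the same order.

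Without border gene barcodes, acute colitis called 8 of 694 genes (1.15%, 0.576% in each direction), chronic colitis 0 (0%) with 8 at an unadjusted p under 0.05, and food allergy 25 (3.6%, with 2.88% higher and 0.72% lower). In acute colitis Klf2 (7.39), Atf3 (7.21), Ier2 (4.61) and Fos (3.79) rose and Igkv4-55, Ccl5, Ighm and Igkc fell. The count went to 1 without WT control, to 4 without AppNL-G-F chronic colitis or WT food allergy, to 12 without AppNL-G-F acute colitis and to 7 without WT acute colitis. Of the 3 WT acute colitis barcodes, 1 was in a high hashtag group, 1 had several hashtags and 1 had none, and of the 3 of AppNL-G-F acute colitis 1 was in a high and 2 in low groups. In the low groups 1 of 466 genes was called (0.215%). In food allergy the 10 largest rises were neutrophil genes, led by Camp (11.60), Ltf (9.89) and Ngp (9.11). Camp had 212 UMIs per 10000 in WT food allergy from 1 barcode and 32.3 in AppNL-G-F food allergy, and at most 0.637 in the other libraries. The 25 calls went to 0 without WT control (21 at an unadjusted p under 0.05), to 10 without WT food allergy and to 16 without AppNL-G-F chronic colitis. Without barcodes that had at least 1% of UMIs from other leukocytes, 3 genes of 518 were called for acute colitis. Chronic colitis and food allergy each rested on the AppNL-G-F library alone in that fit. In the low hashtag groups chronic colitis called 1 gene higher and 4 lower of 466 (0.215% and 0.858%, 1.07% in all) and food allergy 5 higher and 4 lower (1.07% and 0.858%, 1.93% in all). Apoe was among the falls in both (-2.93 and -3.28). It had -2.86 in acute colitis, for which AppNL-G-F gave the only low-group library. The 6 WT barcodes of the low groups held 1 Apoe UMI in all. These Apoe values therefore rest mainly on AppNL-G-F libraries set against the same AppNL-G-F control library (8 barcodes). The food allergy rises were Camp (7.64), S100a9 (5.06), S100a8 (4.91), Ngp (4.76) and Ccl6 (4.40).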

How the data were processed

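CD45.2-positive brain cells of 8 libraries were profiled with 10x 5′ chemistry. The deposited files hold raw UMI counts for 32285 genes and 4 hashtags per library, unfiltered (685270 to 714379 barcodes, 26988646 to 56307389 gene UMIs). Per the labels the authors aligned to GRCm38 (mm10) with Cell Ranger, 6.1.2 in the processing notes and 4 in the file header.

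Barcodes with at least 500 UMIs, 200 genes and at most 5% mitochondrial UMIs were kept (4891 to 7201 per library), and doublets were marked by several hashtags but not removed. The gate members and gene lists were chosen with earlier results of these data known. Counts were summed per library (at least 3 barcodes), filtered on low counts, scaled by TMM and tested with edgeR 4.0.16 (R 4.3.3) quasi-likelihood at an adjusted p of 0.05, with DESeq2 1.42.0 as an alternative. The genotype and treatment fit was additive, since each condition is 1 library, and the class fit had library as a term, which pairs the 2 classes of a library. The 9 gate genes were not tested. SE is the log2 fold divided by the square root of F. Intervals and the floor of 3 counts cover counting error only. Genes were named from the lists, or as the 10 largest rises and falls among those called, or the 5 of lowest p where fewer than 5 passed. On simulated data 97% of 200 genes changed by a log2 fold of 2 were recovered in the class fit (5.37% false calls) and 61% in the genotype fit (2.4%). The changed genes were drawn from those above the median level, and the spread of each gene was its value on the trend over genes. Alternatives were another gate, filter, scaling, denominator or hashtag rule, each library left out, and, after the values were seen, sets without border genes, without 7 mixed barcodes or within hashtag groups. One gene of the plaque-associated list and one of the homeostatic list are not reported here. Figures used matplotlib 3.10.9.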

Additional observations from a re-analysis of the deposited data

Results flagged for a closer look

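The plaque-associated list summed to 255.4 UMIs per 10000 in AppNL-G-F acute colitis, far below the other AppNL-G-F libraries (729 to 777), the 1 sample set apart among 20 groups of libraries looked at, where about 1 in 20 is set apart by chance. With barcodes of exactly 1 hashtag the value was 732 and those of the other AppNL-G-F libraries 756 to 824.

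The genotype effect differed between gated barcodes and border macrophages for 5 genes over all gated barcodes (edgeR interaction, adjusted p under 0.05). The differences of log2 folds were 3.94 for Cst7, 3.63 for Ank, 11.35 for Hba-a1, 16.60 for Hbb-bs and -16.55 for Ighv1-9, of which the globin genes rest on the 1 gated barcode with over 1% erythroid UMIs. Without the 7 mixed barcodes the globin genes had too few counts to test, and Cst7, Ank (3.79) and Ighv1-9 (-17.00) passed in the same directions.

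With the barcodes without a border gene, 90 genes differed. Of the plaque-associated list the differences were 5.62 for Cst7, 6.35 for Lpl, 3.66 for Ccl6, 3.44 for Cd9, 2.82 for Trem2, 2.50 for Ctsb, 2.44 for Cd63, 2.44 for Ctsd, 2.26 for Ctsl, 2.22 for Ctsz and 1.95 for Tyrobp. Igf1 had 9.17, a fitted value with no UMI in WT that is no bound. MHC class II genes had -4.65 (H2-Eb1), -4.21 (H2-Aa), -3.96 (H2-Ab1) and -2.07 (Cd74). Within high hashtag groups alone no gene of the plaque-associated list passed. In low groups the difference could not be fitted, since WT had 0 border macrophages there.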

How the results depend on the processing

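With all 3 of P2ry12, Tmem119 and Sall1 required, shares were 0.0204% (WT acute colitis), 0% (WT and AppNL-G-F chronic colitis), 0.0326% (WT food allergy), 0.0141% (AppNL-G-F control), 0.0139% (AppNL-G-F acute colitis) and 0.116% (AppNL-G-F food allergy). Of barcodes with a C1q sum of 3 they were 2.41, 2.06, 1.81 and 2.10% in WT and 4.33, 1.86, 3.38 and 7.55% in AppNL-G-F (control, acute colitis, chronic colitis, food allergy). The genotype difference in share turned to -0.00918 points at 1000 UMIs and ran from -0.0323 to 0.0318 with 1 library left out (-0.00814 without WT control, -0.0323 without WT chronic colitis, -0.00566 without AppNL-G-F control, -0.0175 without AppNL-G-F food allergy). Hashtag group contrasts turned to -0.0329 (WT acute colitis), -0.0523 (WT chronic colitis), -0.0523 (WT food allergy), 0.0103 (AppNL-G-F acute colitis) and -0.0376 points (control against control) with all 3 genes, to -21.8, -11.8 (WT acute and chronic colitis), 3.18 (AppNL-G-F chronic colitis) and -10.7 (controls) among C1q barcodes, and to -0.0285 (WT chronic colitis) and -0.0467 (AppNL-G-F food allergy) with a top hashtag of at least 80%. With exactly 1 hashtag, list levels per 10000 moved to 86.0, 54.0, 103 and 29.9 in WT and 106 in AppNL-G-F acute colitis for the homeostatic list, to 177, 547, 199 and 372 in WT, 824 in AppNL-G-F control and 732 in AppNL-G-F acute colitis for the plaque-associated list, and to 3.79 (WT control), 31.5 and 10.8 (AppNL-G-F control and acute colitis) for the border list. The cause of these shifts was not tested.

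Class calls (255) became 419 without the 2-of-3 border rule, 108 with under 3 UMIs of other leukocytes' markers, which could be fitted for this test only, 33 in high hashtag groups, 663 with no filter, 702 without border genes and 1075 also under 1% of other leukocytes' UMIs, and 144 to 278 with 1 library left out. They were 593 without the 7 mixed barcodes. Without the replicate block (library) they were 142, with a filter that left 3763 genes, and 248 on the 6347 genes tested with the block. The genotype fits hold treatment and the interaction holds library in their main form, so no further block was added. Genotype calls (0) became 3 in DESeq2, 35 with no filter, 66 without border genes, 10 also under 1%, 96 in low hashtag groups, 0 to 68 with 1 library left out, and 16 to 104 without border genes and 1 library (16, 19, 19, 30, 58, 99 and 104). Acute colitis (0) gave 2, 38, 8, 3 and 1 in the same order, 0 to 48 and 1 to 12 (1, 4, 4, 7, 7, 7 and 12). Chronic colitis gave 1 in DESeq2, 9 with no filter and 5 in low groups, 0 to 0 and 0 to 1. Food allergy gave 14 with no filter, 25 without border genes and 9 in low groups, 0 to 8 and 0 to 35 (0, 10, 16, 20, 29, 33 and 35). Without the 7 mixed barcodes genotype had 26 calls and, with 1 library also left out, 17 to 92 (17, 19, 22, 23, 30, 65, 91 and 92), acute colitis 0 to 15 (0, 3, 6, 6, 7, 7, 14 and 15), chronic colitis 0 to 12 (1, 5, 7 and 12, otherwise 0) and food allergy 0 to 13 (1, 1, 2, 2, 7 and 13, otherwise 0). The interaction (5) gave 90 and 27, 45 without the 7 and 16 in high hashtag groups. DESeq2 turned Igkv9-124 (2.05), Igkv8-27 (1.41), Igkv1-110 (0.90), Igkv14-126 (0.95), Ighv1-22 (0.52) and Igkv6-25 (1.53). Ms4a6b in chronic colitis turned to 0.34 without border genes, 0.40 under 1%, and 0.49 to 1.11 with a library also left out (0.49, 0.50, 1.05, 1.11).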
